A study of Mus musculus with 6 samples.

Results

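The transcripts described here are those of 9 genes, immediate early factors and regulators of them, chosen by name. The immediate early factors are the zinc-finger factors Egr1, Egr2 and Egr3 and the orphan nuclear receptors Nr4a1, Nr4a2 and Nr4a3. The regulators are the Egr corepressors Nab1 and Nab2, and serum response factor, Srf. All 9 were found among the 24061 genes that the count table lists by Entrez number, and all 9 were among the 16371 genes tested. Female C57BL/6 mice of 8 to 14 weeks received a daily intradermal injection into the shaved back for 14 days, either of 20 μg of recombinant IL-31 (rIL-31) in 50 μl of saline or of 50 μl of saline alone. Dorsal skin was collected at Day 14, and whole-skin RNA of 3 samples per group was sequenced. The time from the last injection to collection is not given, and water loss was measured on the injected skin before the mice were killed. Neither labels nor methods state that the numbered samples of a group are different mice, and the p-values therefore reflect only how far these samples scatter, which may be technical scatter.

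Immediate early genes are transcribed within minutes of a stimulus, with no need for new protein. Growth factors, cytokines, wounding and mechanical stress act through ERK kinases on Srf and its partners at the promoters of the Egr genes, and through calcium and cAMP on those of the Nr4a genes. The Egr proteins bind a GC-rich site and recruit Nab1 and Nab2, which restrain them, while the Nr4a proteins are nuclear receptors that act without a known natural hormone and are controlled mainly by how much of them is made. In skin these factors are known from wound edges, stressed keratinocytes and activated immune cells.

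Total counts per library were 23122953 to 25552684 in the rIL-31 group and 21710679 to 23963685 in the saline group. The libraries also differed in composition. The Spearman correlation across genes between GC content and a gene's deviation from its mean over the 6 libraries was 0.391, 0.277 and -0.255 in rIL-31 replicates 1, 2 and 3, against -0.118, -0.21 and -0.246 in saline replicates 1, 2 and 3. Gene numbers without a name in the annotation held 0.913% to 2.84% of the counts of the rIL-31 libraries and 4.74% to 6.03% of those of the saline libraries. A single one of these numbers held 0.167% to 2.14% in the rIL-31 libraries and 4.01% to 5.33% in the saline libraries. Markers were set beside the tissue label: of 8 keratinocyte and 7 fibroblast markers none was at 0 over the libraries together. The same held for the macrophage, endothelial and adipocyte markers, so this is only a weak check of the label. The keratinocyte markers summed to 15910 to 20330 CPM (counts scaled to a common library size) in rIL-31-treated skin and 11980 to 13010 CPM in saline-treated skin.

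All 6 Egr and Nr4a factors rose in rIL-31-treated skin, while Nab1, Nab2 and Srf did not pass the test. The words rose and fell are kept for an FDR below 0.1, the FDR being the Benjamini-Hochberg adjusted p over all tested genes in edgeR's quasi-likelihood test. Of all tested genes 4.51% rose by this rule, against 6 of the 9 genes described here, and none of the 9 was among the 3.73% that fell (0 of 9 also at an unadjusted p below 0.05 and with DESeq2, limma-voom and the exact test). At the thresholds of the study, which add a change of more than 2-fold, 1.15% of all tested genes were called higher, and Egr1, Nr4a1 and Nr4a2 were among them. For 6 of the 9, and for 12.8% of all tested genes, every rIL-31 library lay above every saline library. The 9 genes were chosen with earlier results of these data known, so these counts are a description and not a test.

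**Figure D1:**
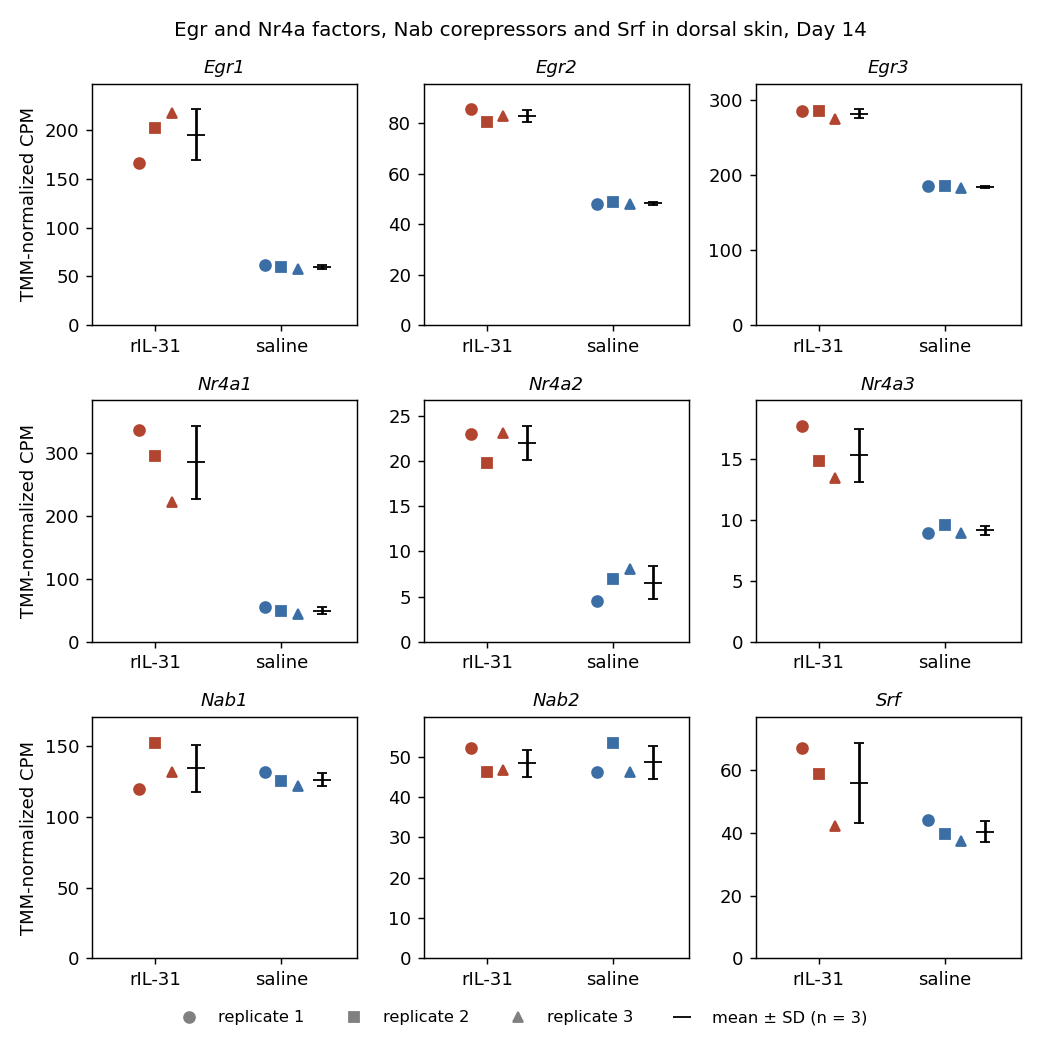
TMM-normalized CPM (vertical axes, starting at 0) of the 9 genes in each library, with rIL-31 on the left and saline on the right of each panel; symbols mark replicates, and the dash with bars is the mean ± SD (n = 3). The groups lie apart for the 6 Egr and Nr4a genes and overlap for Nab1, Nab2 and Srf, where rIL-31 replicate 3 at 42.1 CPM lies below saline replicate 1 at 43.93 CPM.

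Egr1 encodes the factor that growth factor signaling induces most readily in many cell types, and it lies on chromosome 18 from 34861207 to 34864956 in GRCm38.p6. Its TMM-normalized level was 166.9, 202.2 and 217.5 CPM in rIL-31-treated skin, against 61.9, 59.44 and 57.46 CPM in saline-treated skin. The lowest rIL-31 library stood 2.70 times above the highest saline library, and the spread was wider among the rIL-31 libraries (SD 25.95 CPM) than among the saline libraries (SD 2.22 CPM). The log2 fold change was 1.71 (standard error 0.12, FDR 2.57e-05), a 3.28-fold rise with a 95% interval of 2.72 to 3.95, and only 0.586% of tested genes had a larger log2 fold change.

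Egr2 (chromosome 10, 67534469 to 67542188) is required for myelination by Schwann cells and also acts in lymphocytes and fibroblasts. It was at 85.46, 80.66 and 83.0 CPM in rIL-31-treated skin and at 48.0, 48.95 and 47.91 CPM in saline-treated skin. Both groups were tight and well separated, and the log2 fold change was 0.78 (standard error 0.10, FDR 0.00147), a 1.72-fold rise. The locus shares 1712 bases with Gm32255, annotated as a lncRNA and not analysed here, so that reads in that stretch may not be separable.

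Egr3 (chromosome 14, 70077317 to 70082613), known from muscle spindles and lymphocytes, had the highest level per length of the 3 Egr transcripts in every library. It stood at 284.8, 284.6 and 274.8 CPM in rIL-31-treated skin and at 184.9, 184.5 and 182.6 CPM in saline-treated skin, so its replicates differed by a few percent within each group. Its log2 fold change of 0.61 (standard error 0.09, FDR 0.00414) was the smallest among the 6 factors that rose. The remaining family gene, Egr4, had 17, 0 and 0 counts in the rIL-31 libraries and 0, 9 and 0 counts in the saline libraries. That was too few to be tested, and a change of Egr4 was not detectable at this depth.

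The Nr4a genes held the largest rise of the 9. Nr4a1 (chromosome 15, 101253902 to 101274795), which encodes the receptor Nur77 and is induced when the antigen receptors of lymphocytes are engaged, was at 337.3, 296.2 and 223.3 CPM in rIL-31-treated skin and at 55.52, 48.25 and 44.74 CPM in saline-treated skin. The lowest rIL-31 library was 4.02 times the highest saline library. Nr4a1 rose 5.77-fold (95% interval 4.51 to 7.38), or 2.53 on the log2 scale (standard error 0.16, FDR 1.45e-05), and 0.165% of tested genes had a larger one. The 3 rIL-31 libraries stood in the opposite order for Nr4a1 and for Egr1, with replicate 1 highest for Nr4a1 and lowest for Egr1, so these genes did not scale together from sample to sample.

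Nr4a2 (chromosome 2, 57106830 to 57124003) encodes Nurr1, best known for the development of dopamine neurons. Its level was lower, at 23.01, 19.8 and 23.09 CPM in rIL-31-treated skin and 4.49, 6.94 and 8.06 CPM in saline-treated skin. These rest on 474 to 594 counts in the rIL-31 libraries and 107 to 173 counts in the saline libraries. The saline libraries were uneven, yet the groups were far apart, at 3.39-fold, or 1.76 on the log2 scale (standard error 0.21, FDR 0.00106). It ranged from 1.55 without saline replicate 1, the lowest library, to 1.94 without saline replicate 3. Nr4a2 shares 670 bases with LOC105244150, annotated as protein-coding and not analysed here, and the same limit applies to reads there.

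Nr4a3 (chromosome 4, 48045078 to 48086447), which encodes Nor1, a receptor induced in vessel wall and muscle cells, was at 17.68, 14.83 and 13.41 CPM in rIL-31-treated skin and 8.90, 9.58 and 8.90 CPM in saline-treated skin. The groups did not overlap, but the lowest rIL-31 library was only 1.4 times the highest saline library. Its log2 fold change of 0.74 (standard error 0.17, FDR 0.0293) was the least secure of the 6 rises. Without saline replicate 1, 2 or 3 its FDR was 0.115, 0.131 and 0.137, with log2 fold changes of 0.73, 0.78 and 0.73, and without rIL-31 replicate 1 it also missed the threshold, at 0.63.

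The corepressors did not pass the test. Nab1 (chromosome 1, 52455849 to 52500712) was at 119.5, 152.2 and 131.5 CPM in rIL-31-treated skin and 131.4, 125.6 and 122.0 CPM in saline-treated skin. Nab2 (chromosome 10, 127660918 to 127666703), which Egr1 itself induces in other cells as a feedback brake, was at 52.29, 46.16 and 46.61 CPM in rIL-31-treated skin and 46.24, 53.41 and 46.23 CPM in saline-treated skin. The groups overlapped for both genes. The log2 fold change of Nab1 was 0.089 (95% interval -0.16 to 0.34, FDR 0.73) and that of Nab2 -0.0083 (95% interval -0.27 to 0.25, FDR 0.98), so for Nab2 the fitted interval spans 0.83-fold to 1.19-fold. The annotated end of Nab2 shares 70 bases with Stat6 (log2 fold change 0.24, FDR 0.27), and reads in that stretch may not be separable.

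Srf (chromosome 17, 46546838 to 46558267), the factor that binds CArG boxes in the promoters of immediate early and actin genes, was at 67.01, 58.6 and 42.1 CPM in rIL-31-treated skin and 43.93, 39.67 and 37.33 CPM in saline-treated skin. Replicates 1 and 2 of the rIL-31 group stood above all saline libraries and replicate 3 among them. The log2 fold change was 0.47 (standard error 0.17, 95% interval 0.11 to 0.84, FDR 0.142). It was past the threshold with DESeq2 (FDR 0.0845), and without rIL-31 replicate 3 it was 0.64 (FDR 0.0044). Srf has a GC content of 64.4%, above that of 99.5% of tested genes, and the rIL-31 libraries in which it was high are those in which GC-rich genes in general stood high. With offsets for GC content and transcript length fitted to each library, its log2 fold change was 0.33 (95% interval 0.076 to 0.58, FDR 0.143). With the replicate block added to these offsets it was 0.33 (FDR 0.0677). The part of GC content in the level of Srf was not tested.

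The same offsets were applied to all 9 genes, since Egr1, at 57.3% GC, and Nr4a1 are also richer in GC than the median tested gene at 49.8%. With the offsets the log2 fold changes were 1.62 for Egr1, 0.70 for Egr2, 0.55 for Egr3, 2.37 for Nr4a1, 1.77 for Nr4a2 and 0.83 for Nr4a3. The 6 factors thus rose with the offsets as well, with FDRs from 5.01e-06 to 0.0183, and Nab1 (0.12) and Nab2 (-0.14) again did not pass.

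**Figure D2:**
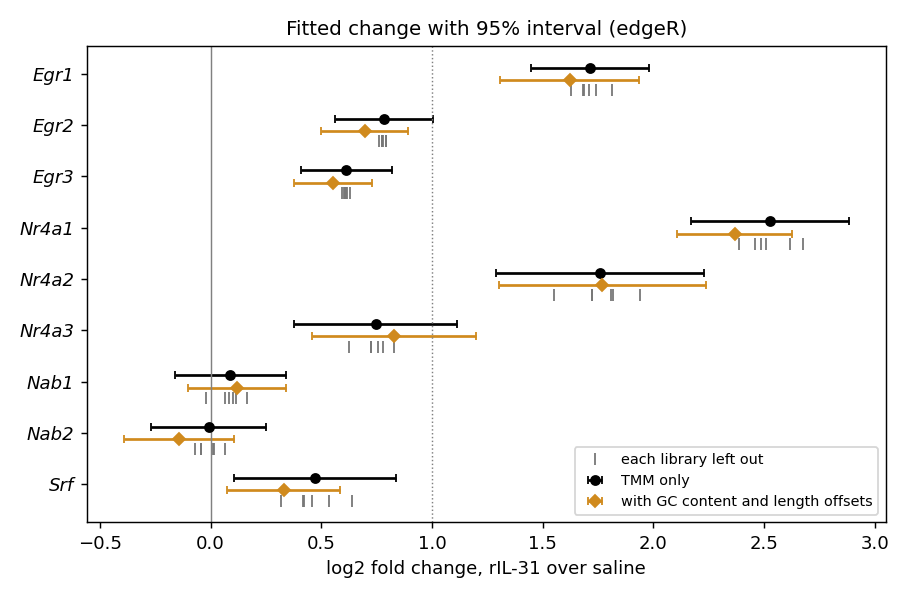
Log2 fold change of rIL-31 over saline (horizontal axis) for the 9 genes from edgeR, with TMM normalization alone (circles) and with offsets for GC content and length (diamonds). Bars are 95% intervals, ticks are the fits that leave out 1 library each, and the dotted line marks a 2-fold change. Nr4a1 lies farthest to the right at 2.53, and the intervals of Nab1 and Nab2 cross 0.

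Promoter sequence of the members was read from RefSeq windows of 250 bases before to 50 bases after each annotated start (GRCm38.p6), which were at hand for 7 of the 9 genes in 11 windows, 5 of them for Egr2. No window was at hand for Egr1 or Egr3, so their promoters were not searched for any motif. Both strands were searched for the CArG box of Srf, the Egr site GCGNGGGCG, the Nr4a site AAAGGTCA, the cAMP response element TGACGTCA and the STAT site TTCNNNGAA. The 150 bases before the start are shown for the genes in which a motif was found, to set the sites of the members' own families beside their levels. The CArG box was found in Srf and in Egr2, and in 1.63% of all 32851 promoters. Srf holds a pair of them, 82 and 62 bases before the start, after an Egr site at 101 bases, and Egr2 holds one 72 bases before each of the starts shown. The Egr2 window of the start at 67535499 had no match. Those of the starts at 67537869, 67537870 and 67537930 hold the same site. Capitals mark the motifs, written as they read on the strand of the gene.
Srf, chr17:46556163-46556312, minus strand: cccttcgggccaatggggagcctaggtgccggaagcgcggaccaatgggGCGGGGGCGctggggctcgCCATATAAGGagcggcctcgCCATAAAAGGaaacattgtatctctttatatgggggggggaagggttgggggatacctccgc
Egr2, chr10:67537416-67537565, plus strand: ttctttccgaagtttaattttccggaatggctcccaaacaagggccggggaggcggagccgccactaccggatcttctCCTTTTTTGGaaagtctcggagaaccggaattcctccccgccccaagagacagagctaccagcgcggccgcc
Egr2, chr10:67537719-67537868, plus strand: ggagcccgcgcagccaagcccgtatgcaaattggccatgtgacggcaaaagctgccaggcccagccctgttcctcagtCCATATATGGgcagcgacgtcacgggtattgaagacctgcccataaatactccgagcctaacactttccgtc

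The Egr site was found in 4 of the 7 genes, Nr4a1, Nr4a2, Nab1 and Srf, and in 5.55% of all promoters. Nab1, whose level did not pass the test, held 3 of them, at 141, 109 and 38 bases before the start, whereas Nr4a1 and Nr4a2, which rose, held 1 each, at 60 and 74 bases. In Nr4a1 and in the first site of Nab1 the motif reads on the opposite strand.
Nr4a1, chr15:101266696-101266845, plus strand: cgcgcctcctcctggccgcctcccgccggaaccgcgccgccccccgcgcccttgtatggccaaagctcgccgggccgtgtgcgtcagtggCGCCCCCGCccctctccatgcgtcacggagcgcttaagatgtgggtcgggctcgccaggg
Nr4a2, chr2:57124004-57124153, minus strand: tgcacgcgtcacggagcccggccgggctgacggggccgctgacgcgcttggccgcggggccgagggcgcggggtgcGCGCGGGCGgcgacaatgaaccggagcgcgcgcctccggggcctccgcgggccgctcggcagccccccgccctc
Nab1, chr1:52500449-52500598, minus strand: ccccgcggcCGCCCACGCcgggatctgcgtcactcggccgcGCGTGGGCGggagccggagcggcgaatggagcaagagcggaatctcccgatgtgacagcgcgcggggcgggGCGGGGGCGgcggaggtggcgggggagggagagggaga

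The windows of Nab2 and Nr4a3 held none of the 5 motifs. The Nr4a, cAMP and STAT motifs were found in none of the members' windows, and in 1.51%, 1.79% and 8.3% of all promoters. Only exact matches to the full motifs were counted, so shorter or altered forms of these sites were not searched for. A match is only a stretch of letters, and binding was not measured here.

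To compare the genes with each other, levels were divided by the length of their exons and given as CPM per kilobase. In rIL-31-treated skin the order of the mean level was Nr4a1 (106.6 ± 21.6), Egr3 (68.6 ± 1.39), Egr1 (43.6 ± 5.79), Nab1 (33.4 ± 4.11), Egr2 (26.1 ± 0.754), Srf (21.4 ± 4.85), Nab2 (18.7 ± 1.32), Nr4a2 (5.87 ± 0.502) and Nr4a3 (2.68 ± 0.381), all in CPM per kilobase (SD, n = 3). In saline-treated skin it was Egr3 (44.8 ± 0.304), Nab1 (31.4 ± 1.18), Nab2 (18.8 ± 1.61), Nr4a1 (18.5 ± 2.05), Srf (15.4 ± 1.28), Egr2 (15.2 ± 0.181), Egr1 (13.3 ± 0.496), Nr4a2 (1.74 ± 0.488) and Nr4a3 (1.596 ± 0.0686), in the same unit (SD, n = 3). Nr4a1 and Egr1 thus moved up the order, to places 1 and 3 in rIL-31-treated skin. Neighbours in this order whose libraries overlapped were Egr1 with Nab1, Egr2 with Srf, and Srf with Nab2 in the rIL-31 group, where Srf ran from 16.09 to 25.62 CPM per kilobase. In the saline group they were Nab2 with Nr4a1, Nr4a1 with Srf, Srf with Egr2, and Nr4a2 with Nr4a3.

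**Figure D3:**
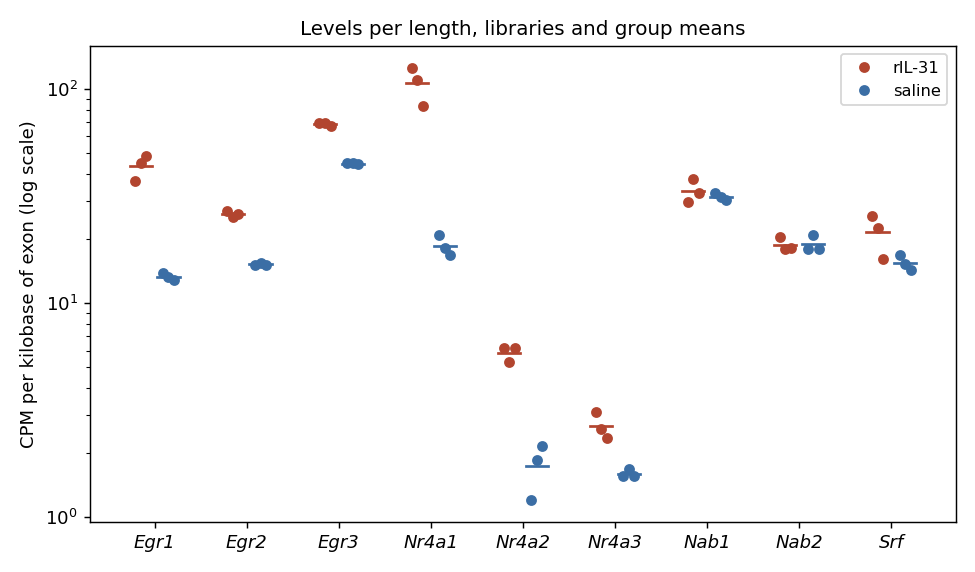
CPM per kilobase of exon on a log axis for each gene, with each of the 3 libraries a point and the group mean a line, rIL-31 on the left of each pair and saline on the right. Nr4a1 averages 106.6 in rIL-31-treated skin and 18.5 in saline-treated skin, while the points of Nab2 intermingle.

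The make-up of each family shifted with the unequal rises. Egr1 made up 27.9%, 32.3% and 34.3% of the summed Egr1, Egr2 and Egr3 level per kilobase in the rIL-31 libraries, against 18.7%, 18.0% and 17.7% in the saline libraries. Egr3 held the largest share in every library, at 47.3% to 52.0% in rIL-31-treated skin and 60.9% to 61.5% in saline-treated skin. The Nr4a sum was nearly all Nr4a1, at 90.7% to 93.3% in the rIL-31 libraries and 81.8% to 88.3% in the saline libraries. In whole skin such a shift can come from fewer or more cells of a type or from less or more RNA per cell, and these cannot be told apart.

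The balance of corepressor to activator transcripts was lower in every rIL-31 library than in every saline library. The ratio of Nab2 to Egr1, each in CPM per kilobase, was 0.544, 0.397 and 0.372 in the rIL-31 libraries and 1.30, 1.56 and 1.40 in the saline libraries. Egr1 transcripts per kilobase therefore outnumbered those of Nab2 in every rIL-31 library and were fewer in every saline library. The ratio of Nab1 to Nab2 overlapped between the groups, at 1.47, 2.12 and 1.81 in rIL-31-treated skin and 1.82, 1.51 and 1.69 in saline-treated skin. Srf to Egr1 was 0.688, 0.497 and 0.332 in the rIL-31 libraries and 1.22, 1.14 and 1.11 in the saline libraries. These ratios were chosen with the changes known and are given as a description, with no test.

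The members were then set beside the genes that act with them. Of 39 tested immediate early genes outside the 9, 27 rose, none fell and 12 did not pass, with a median log2 fold change of 0.70 against 0.0077 over all tested genes. The Egr and Nr4a factors and this list belong to one program and were measured in the same samples, so neither is independent evidence of the other's direction. The smallest p values belonged to Fosb, an AP-1 subunit, at 2.62 (standard error 0.12), Atf3, a stress-induced factor, at 2.22 (standard error 0.11), Fos at 2.47 (standard error 0.15) and Dusp1, a phosphatase that shuts off MAP kinases, at 1.46 (standard error 0.10), with FDRs of at most 2.25e-05. Among the 12 that did not pass were Ccn2, an Srf- and YAP-responsive matricellular gene, at 0.055 (FDR 0.83) and Maff, a small Maf factor, at 0.16 (FDR 0.619), both named after their values were seen.

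Upstream of Srf little passed. Of 16 Srf cofactors, ERK pathway kinases and Creb factors, none rose in edgeR's test, 1 fell and 15 did not pass, with a median of 0.059. At an unadjusted p below 0.05 edgeR had 1 of them higher, and DESeq2, the exact test and limma-voom called 1, 1 and 0 higher. The count was 3 without rIL-31 replicate 3, and 1 without rIL-31 replicate 1, with the offsets for GC content and length, and with the replicate block. The one that fell was Elk4, an Ets-domain partner of Srf, with 25.72, 42.15 and 41.36 CPM in rIL-31-treated skin and 63.5, 69.89 and 77.37 CPM in saline-treated skin, which is -0.95 on the log2 scale (standard error 0.18, FDR 0.014). The other Ets partners, Elk1 at 0.013 (FDR 0.976) and Elk3 at 0.23 (FDR 0.318), and the actin-regulated cofactor Mrtfa at 0.28 (FDR 0.499) did not pass. Rps6ka3, a kinase downstream of ERK, was at -0.38 (FDR 0.116) and Crem, a cAMP-responsive factor, at 0.52 (FDR 0.123), and each was past the threshold in 6 of the 16 alternative fits. With the offsets for GC content and length Crem was at 0.59 (FDR 0.0542) and Rps6ka3 at -0.13 (FDR 0.482).

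Of 20 cytoskeletal targets of Srf and its MRTF cofactors, 2 rose and 18 did not pass, with a median of 0.20. They were Tagln2, an actin-binding transgelin, at 0.43 (FDR 0.0514) and Zyx, the focal adhesion protein zyxin, at 0.39 (FDR 0.078). Both calls were near the threshold, and each was lost in 5 of the 6 fits that left out 1 library, with FDRs of up to 0.264 and 0.309. The exception was the fit that left out replicate 3 of the rIL-31 group. Zyx also missed it with the offsets for GC content and length, at 0.25 (FDR 0.144). The smooth muscle actin gene Acta2 was at 0.20 (FDR 0.436), and was named after its values were seen.

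Of 21 tested genes known from other systems as Egr targets, 4 rose and 17 did not pass, with a median of 0.23. Thbs1, the matricellular protein thrombospondin 1, was at 1459, 1446 and 1254 CPM in rIL-31-treated skin and 767.1, 631.3 and 575.6 CPM in saline-treated skin, which is 1.08 on the log2 scale (standard error 0.13, FDR 0.000892). Ptges, which makes prostaglandin E2, rose by 0.81 (standard error 0.12, FDR 0.00414), the transcription factor gene Nfatc1 by 0.54 (FDR 0.0202) and the urokinase gene Plau by 0.42 (FDR 0.0615). Nfatc1 missed the threshold without saline replicate 2 or 3 (FDR up to 0.133), and Plau in all fits without 1 library but that without rIL-31 replicate 3 (FDR up to 0.238). Classical targets such as Pdgfa at 0.077 (FDR 0.839), Pdgfb at 0.061 (FDR 0.9) and Tgfb1 at -0.13 (FDR 0.59) did not pass, and were named after their values were seen. The count of this list was 2 without saline replicate 2 or 3 and 9 without rIL-31 replicate 3.

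Of 19 tested Nr4a partners and targets, 3 rose, 2 fell and 14 did not pass, with a median of -0.039. Sgk1, a serum- and glucocorticoid-induced kinase gene, rose by 0.68 (standard error 0.11, FDR 0.0058) and Nfkbia, the NF-κB inhibitor gene, by 0.72 (standard error 0.16, FDR 0.0275), though Nfkbia missed the threshold without saline replicate 1 or 2 (FDR up to 0.146). Nrip1, a nuclear receptor corepressor gene, fell, with 13.2, 14.41 and 21.11 CPM in rIL-31-treated skin and 38.43, 41.53 and 41.57 CPM in saline-treated skin, which is -1.32 on the log2 scale (standard error 0.18, FDR 0.00203). The cyclin gene Ccnd2 was at -0.46 (FDR 0.0405) and the osteopontin gene Spp1, named after its values were seen, at 0.51 (FDR 0.0979), and each lost its call in 5 of the 6 fits without 1 library, with FDRs up to 0.182 and 0.341. The retinoid X receptors, the dimer partners of Nr4a1 and Nr4a2, did not pass, with Rxra at 0.28 (FDR 0.137), Rxrb at -0.042 (FDR 0.895) and Rxrg at -0.058 (FDR 0.953).

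**Figure D4:**
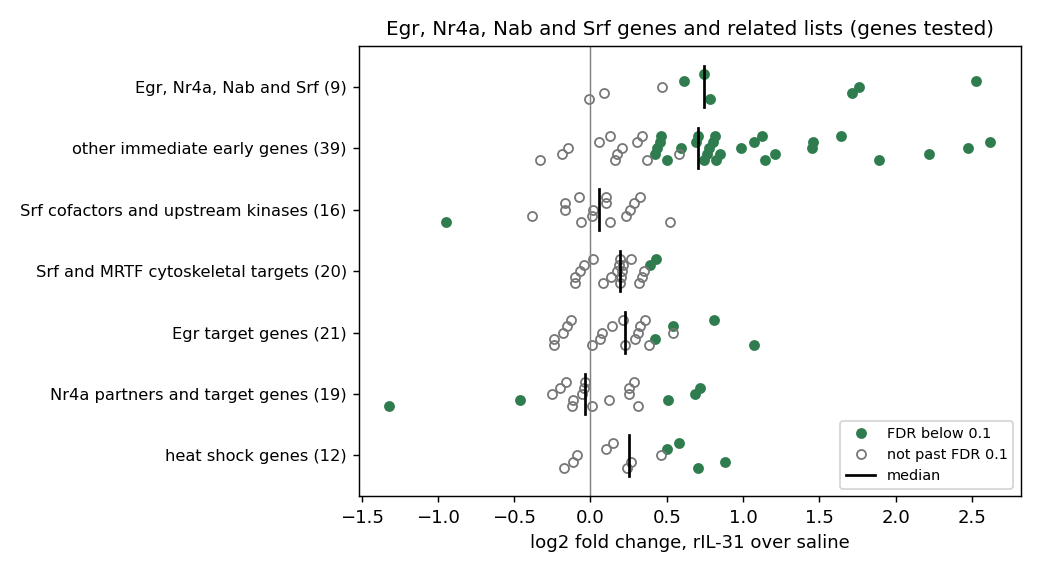
Log2 fold change of rIL-31 over saline (horizontal axis) for each tested gene of the members and 6 related lists, with filled points at an FDR below 0.1 and a bar at each median. The immediate early list has its median at 0.70, while the lists of Srf partners, Srf targets, Egr targets and Nr4a partners have medians between -0.039 and 0.23.

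Genes whose pattern over the 6 libraries was most like that of each factor were found by the root mean square difference of mean-centred log2 CPM, among 15202 genes with a mean of at least 1 CPM. For Egr1 they were Tnfaip3, an inhibitor of NF-κB signaling (difference 0.124), the B-cell chemokine gene Cxcl13 (0.124) and Ptgs2, the inducible cyclooxygenase (0.138). For Egr2 they were the Krüppel-like factor genes Klf6 (0.023) and Klf4 (0.0348) and the pannexin gene Panx3 (0.0455). Egr2, Klf6 and Klf4 thus shared nearly one profile, with log2 fold changes of 0.78, 0.78 and 0.82. For Egr3 Cyb561a3 (0.0277) and Tgfbi (0.0387) are given.

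For Nr4a1 the nearest genes were Fosb (0.14), Gadl1, a decarboxylase gene (0.168), and Atf3 (0.222), at log2 fold changes of 2.62, 2.27 and 2.22. For Nr4a2 they were Etnppl (0.0797), the chemokine gene Ccl4 (0.142) and the interleukin-1β gene Il1b (0.161). Their log2 fold changes were 2.50, 1.99 and 1.90, against 1.76 for Nr4a2. The call of Etnppl (FDR 0.049) was lost in 4 of the fits without 1 library. Etnppl lay at 1.67 to 2.29 CPM in rIL-31-treated skin and 0.084 to 0.559 CPM in saline-treated skin, so its likeness rests on few counts. For Nr4a3 they were Tmprss4 (0.054), Ecm1 (0.0548) and Mtmr11 (0.0583). All of these likenesses rest on 6 libraries in 2 groups, and are given as a description.

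Other measures moved with the groups as well. Of 12 heat shock genes 4 rose and 8 did not pass, with a median of 0.26 and sums of 3795 to 4287 CPM in the rIL-31 libraries and 3429 to 3701 CPM in the saline libraries. The chaperone gene Dnajb1 was at 0.88 (FDR 0.000826), and Hspb1, Hspa1b and Hspa1a at 0.70, 0.50 and 0.58, of which Hspa1a and Hspa1b lost the call in 5 of the 6 fits without 1 library and Hspb1 without saline replicate 2. Of 8 keratinocyte markers 4 rose, the keratin genes Krt1 at 1.21 (FDR 0.000254), Krt10 at 0.71, Krt5 at 0.90 and Krt14 at 1.08. The other 4 did not pass, with Krt15 at 0.45, Trp63 at -0.18, Dsp at -0.066 and Dsg1a at -0.24. Of 8 mast cell markers 5 rose (307.0 to 360.5 CPM in the rIL-31 and 234.2 to 246.4 CPM in the saline libraries), and all 8 melanocyte markers fell (287.0 to 318.0 CPM in the rIL-31 and 631.6 to 652.5 CPM in the saline libraries). Of the mast cell genes, Cpa3 and Fcer1a lost the call without saline replicate 2 or 3 and Cma1 without saline replicate 2. For Mcpt4, nearest the threshold at 0.45 (FDR 0.0546), these fits are not given. The 3 mast cell markers that did not pass were Kit at -0.21 (FDR 0.455), Ms4a2 at -0.17 (FDR 0.825) and Tpsb2 at 0.56 (FDR 0.19). The part of these lists in the rise of the Egr and Nr4a genes was not tested.

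The markers of other cell types that skin holds are given beside these. Skeletal muscle markers, none of them at 0 over the libraries together, summed to 7826, 8182 and 6081 CPM in rIL-31 replicates 1, 2 and 3 and to 8059, 8294 and 7686 CPM in the saline replicates, and 1 of 10, Myh4, fell (FDR 0.0247). T cell markers summed to 27.36 to 34.65 CPM in rIL-31-treated skin and 30.11 to 37.42 CPM in saline-treated skin, and of the 7 tested none rose and 1, Cd4, fell (FDR 0.00999). Of 8 macrophage markers and 8 endothelial markers none rose, and Cldn5, an endothelial tight junction gene, fell (FDR 0.0543, and up to 0.249 in 4 of the 6 fits without 1 library). For these 3 lists 0 genes were higher in edgeR's test also at an unadjusted p below 0.05, and with DESeq2, limma-voom and the exact test. Of 4 tested neutrophil markers 2 rose, S100a9 at 0.89 (FDR 0.00915) and Csf3r at 0.64 (FDR 0.0277), with sums over the list of 131.4 to 163.2 CPM in the rIL-31 libraries and 93.6 to 122.5 CPM in the saline libraries. S100a8 at 1.01 (FDR 0.113) and Cxcr2 at 0.22 (FDR 0.468) did not pass. With the offsets for GC content and length S100a8 was past the threshold, at 1.09 (FDR 0.0148). Mpo, Camp and Ngp were too low to be tested. Csf3r missed the threshold in 3 of the 6 fits without 1 library, with FDRs up to 0.185.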

How the data were processed

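RNA from dorsal skin of 3 rIL-31-treated and 3 saline-treated samples was sequenced, and the authors deposited a table of raw counts, in whole numbers for each gene. Per the labels, bcl2fastq, CASAVA version 1.8, TopHat, DESeq and the build mm10 were used, with no roles given. How reads were counted, on which annotation and whether by strand, is not given in the sources used here, which leaves the values of overlapping genes uncertain. Names came from RefSeq (GRCm38.p6), where 85 of 24061 Entrez numbers lacked one, and length and GC content from GENCODE transcripts of the same assembly, for 94.2% of tested genes.

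Genes were filtered with filterByExpr (minimum count 10), scaled by TMM and tested with edgeR 4.0.16 (R 4.3.3) by quasi-likelihood, with treatment as the only term and Benjamini-Hochberg adjustment over 16371 genes. The procedure was tested on simulated data. Levels are TMM-normalized CPM, and the profile comparison used log2 of CPM plus 0.5. The members and gene lists were chosen with earlier results of these data known. The genes named were the members, Egr4, up to 4 per list with the smallest p, and the 3 nearest profiles per factor, less any withheld and not reported here; further genes (partners, markers, overlapping or well-known genes) were added with their values in view. Alternatives were limma-voom (limma 3.58.1), DESeq2 1.42.0, the exact test of edgeR on RLE factors, upper-quartile scaling, library size only, other filters, the replicate block, GC content and length offsets (lowess, span 0.3, depth and TMM factor kept), and each library left out.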

Additional observations from a re-analysis of the deposited data

How the results depend on the processing

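Egr1, Egr2, Egr3, Nr4a1 and Nr4a2 kept their direction and an FDR below 0.1 in all 16 alternative fits, with log2 fold changes of 1.599 to 1.81, 0.70 to 0.80, 0.55 to 0.63, 2.37 to 2.68 and 1.55 to 1.94. Nr4a3 lost its call in 4 of 16, all with 1 library left out, and Srf gained one in 5 of 16, at 0.47 with DESeq2 and with the exact test, 0.45 with the replicate block, 0.33 with the replicate block and GC content and length offsets, and 0.64 without rIL-31 replicate 3. Nab1 and Nab2 passed in none of the 16. Over 1.5-fold in place of 2-fold, all 6 factors were called. Whether same-numbered samples are paired is not stated in the labels. Their deviations from the group means correlated at 0.107, -0.0418 and 0.317 for numbers 1, 2 and 3. Of the 3 rIL-31 libraries, 2 correlated best with their own number. With 3 libraries per group these values cannot decide the question. Over all genes, the replicate block gave 1177 higher and 1096 lower against 739 and 610 as reported, the block with GC content and length offsets 1284 and 806, and the offsets alone 857 and 487. With 1 library left out the counts ran from 246 to 2050 higher and from 171 to 1968 lower, the most without rIL-31 replicate 3; the cause was not tested. Within 100 bases of the start the Egr site was found in 3 members in place of 4, and with the length of the longest transcript 14 of 18 places in the order of levels were kept. With 3 libraries per group, changes of genes at the level of Egr4 cannot be judged.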
